A study of Arabidopsis thaliana with 24 samples.

Results

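Whole Arabidopsis thaliana seedlings grown outdoors in June 2013 were compared with seedlings grown in a standard laboratory long day, both harvested in the evening at zeitgeber time 16 (ZT16, hours after dawn). The groups were chosen by sample title and comprised 3 natural LD (2013) libraries and 3 Lab LD libraries, 6 of the 24 libraries in the series. All seedlings were 14 days old and grown on soil. Those of the outdoor group had been cold-treated as seeds at 4 °C and then kept in an open cage under a double layer of garden fabric, which dims sunlight but keeps its red to far-red balance. The labels give the indoor setting only by reference to earlier work. They name no genotype, and they do not tie these libraries to a site. Light, temperature and every other feature of the outdoor setting changed together, so their parts in a difference cannot be told apart. Polyadenylated RNA was sequenced as 3′ tags, with reads gathered toward the ends of transcripts. Replicates are not described as separate plantings, so p-values measure the spread between these libraries only.

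Long days bring Arabidopsis to flower through the photoperiod pathway. CO, a light-stabilised transcription factor, activates FT in the leaf late in the day, and FT protein travels to the shoot apex, where with FD it switches on SOC1, FUL and AP1. The age pathway acts beside it: miR156 holds down the SPL factors in young plants, and miR172, which rises with age, holds down the AP2-like repressors of flowering. The same leaves read shade through phytochromes and PIF factors, short-wave light through HY5, and the supply of sugar at dusk through energy signalling.

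Total counts per library were 6543615 to 7821026 outdoors and 14132231 to 14756759 indoors, so every outdoor library was shallower. Organelle genes held 0.515% to 0.724% of the outdoor counts and 0.468% to 0.567% of the indoor counts, and the 10 most abundant genes held 11.4% to 12.6% and 8.87% to 9.33%. In counts scaled to a common library size (CPM, on a log2 scale), the leading principal component held 64.1% of the variance among the 6 libraries and set the groups apart. A list of 26 photosystem, antenna and Rubisco-related genes, which mark green tissue, together made up 90350 to 99840 CPM outdoors and 75220 to 81900 CPM indoors. The list includes RCA and RBCS1A, and its members changed in both directions, 9 higher and 7 lower. The 7 pollen markers summed to at most 1.11 CPM in any library, with 4 of them at 0 in all 6. Seed storage markers summed to 0.398 to 13 CPM outdoors and 0.187 to 9.64 CPM indoors.

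The 2 miRNAs of the age pathway and their sites in transcripts of the comparison are shown because several targets of miR156 were higher outdoors and several of miR172 lower. Mature sequences were taken from RefSeq annotation (TAIR10.1), with the seed (bases 2 to 8) in capitals. The sites below them were found in RefSeq transcripts of the same build, with the bases opposite the seed in capitals.
miR156a-5p: uGACAGAAgagagugagcac
SPL3 site: ttgcttactctcTTCTGTCa
SPL4 site: ctgctctctctcTTCTGTCa
SPL9 site: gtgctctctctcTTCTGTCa
miR172a: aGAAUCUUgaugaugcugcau
SMZ site: ttgcagcatcatcAGGATTCc
SNZ site: ttgtagcatcatcAGGATTCc
TOE1 site: cagcagcatcatcAGGATTCt
The SPL3 site lies at chr2:14305878-14305897 on the plus strand and the SPL4 site at chr1:19807090-19807109 on the plus strand, both in the 3′ UTR. The SPL9 site at chr2:17589066-17589085, plus strand, is in the coding sequence. The SMZ site at chr3:20373774-20373794, minus strand, and the TOE1 site at chr2:12226233-12226253, minus strand, are coding, and the SNZ site at chr2:16389066-16389086, minus strand, is in the 3′ UTR. The SPL sites pair with the whole seed of miR156, with 2 mismatches elsewhere in SPL3 and SPL4 and 1 in SPL9. Each AP2-like site has 1 position in the seed that does not form a standard pair with miR172. Counted over the whole site, mismatches are 3 in SMZ and TOE1 and 4 in SNZ. Sites of SPL15, TOE2 and TOE3 are not shown. The SPL15 site reads the same as that of SPL9, but SPL15 was not called higher. The TOE2 site has 1 mismatch and the TOE3 site 3, and TOE3 was not called lower. The levels of the miRNAs themselves were not analysed here.

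Of 27655 genes in the count files, 17865 were tested. At an adjusted p under 0.05 (edgeR's quasi-likelihood test, Benjamini-Hochberg), 3585 genes (20.1%) were higher outdoors and 3408 (19.1%) were lower, together 39.1% of those tested. The libraries of the groups did not overlap for 49.8% of the genes tested. The naming rule took called list members only where these libraries did not overlap. For members named that way, a lack of overlap was fixed by the choice and adds no support. Most differences were small: 367 of the higher and 649 of the lower genes changed at least 2-fold, and the median log2 fold change over all genes was -0.000854. These shares are the background for every count of list members. The filter on low counts kept some genes only through the group where they were high. For TFL1, SMZ, CCA1, HFR1, PIL1, DIN1, GBSS1, ZAT6, DREB2A, FRO2, IRT1, AT5G17820 and AT1G02190 the values are therefore given without a test. Counts of called genes include them. Each log2 fold change is given with its standard error, and each mean CPM with its standard deviation (SD, n = 3). CPM were scaled by TMM, the trimmed mean of M values.

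**Figure D1:**
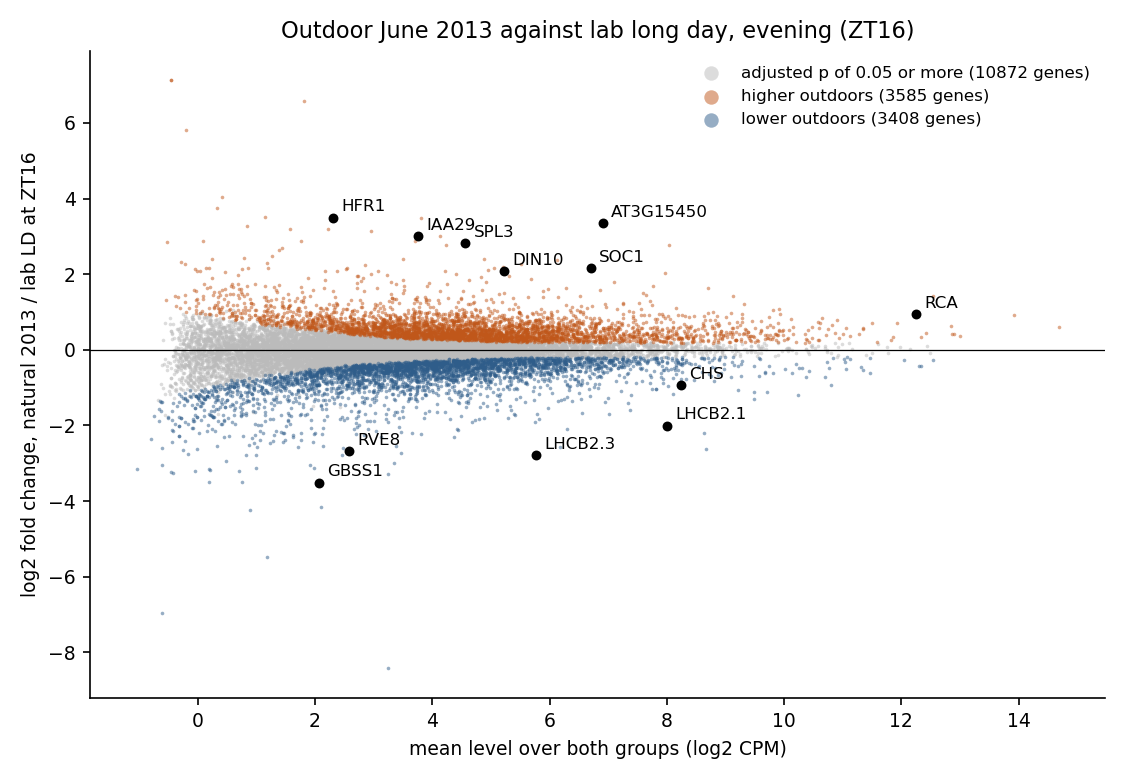
Each point is 1 of the 17865 genes tested, with its mean level over both groups (log2 CPM) on the horizontal axis and its log2 fold change, outdoor June 2013 over lab LD at ZT16, on the vertical axis. Orange points (3585) were higher and blue points (3408) lower at an adjusted p under 0.05, and the labelled genes are described in the text.

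Genes that promote flowering were higher outdoors. Of 18 tested members of that list (19 matched), 10 rose and 1 fell, 55.6% and 5.6% of the members, and their median log2 fold change was 0.63. FT (AT1G65480), the gene of the mobile florigen, read 14.5, 16.4 and 17.1 CPM outdoors against 10.8, 10.6 and 11.5 CPM indoors (log2 fold change 0.55 ± 0.11, adjusted p = 0.000786). The outdoor libraries all lay above the indoor ones. CO (AT5G15840), its activator, read 3.56, 4.08 and 5.71 CPM outdoors against 2.50, 3.05 and 3.46 CPM indoors and missed the threshold (0.57 ± 0.22, adjusted p = 0.051). CO passed with the replicate number as a block, without outdoor replicate 1 and without indoor replicate 3, with adjusted p-values of 0.0476, 0.0356 and 0.0395. These passes add no support. The replicate numbers did not pair the libraries. Outdoor replicate 1 was the lowest outdoor library for CO and indoor replicate 3 the highest indoor one, so leaving out either widens the difference. The FT homologue TSF (AT4G20370) read 1.78, 1.85 and 1.33 CPM outdoors against 1.69, 2.13 and 2.04 CPM indoors (-0.24 ± 0.28, adjusted p = 0.531). GI (AT1G22770) and FKF1 (AT1G68050), which together relieve the repression of CO, did not pass either, at 0.05 ± 0.31 (adjusted p = 0.922) and -0.06 ± 0.12 (adjusted p = 0.759). In whole seedlings, more cells of a type and more RNA per cell cannot be told apart, here and in what follows.

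Several integrators and meristem genes that act downstream of FT or beside it were higher outdoors. SOC1 (AT2G45660), a MADS-box factor that gathers several flowering signals, read 176, 175 and 162 CPM outdoors against 34.2, 39.5 and 40.0 CPM indoors, a 4.50-fold difference (log2 fold change 2.2 ± 0.08, adjusted p = 2.36e-12). The 6 libraries fell into 2 tight clusters with no overlap. FUL (AT5G60910), which acts redundantly with SOC1 at the apex, read 5.19, 6.92 and 5.31 CPM outdoors against 1.62, 1.59 and 1.48 CPM indoors (1.89 ± 0.22, adjusted p = 1.94e-06). AGL24 (AT4G24540), a partner of SOC1, read 14.2, 15.7 and 12.3 CPM outdoors against 9.18, 6.34 and 7.48 CPM indoors (0.88 ± 0.15, adjusted p = 0.000105). FLD (AT3G10390), a chromatin regulator of the autonomous pathway, was the 1 promoter that fell, with 3.71, 4.57 and 3.58 CPM outdoors against 5.43, 6.10 and 5.2 CPM indoors (-0.49 ± 0.18, adjusted p = 0.0414). That call was lost under 7 of 15 alternatives, among them the fits without outdoor replicates 1 or 3 and without indoor replicates 1 or 2, with adjusted p-values of 0.0627 to 0.179.

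The miR156-targeted genes SPL3, SPL4, SPL5 and SPL9 were higher outdoors. SPL3 (AT2G33810) read 37.8, 44.6 and 41.9 CPM outdoors against 5.0, 5.55 and 7.11 CPM indoors and was 7.04-fold higher (log2 fold change 2.81 ± 0.12, adjusted p = 9.81e-12). For SPL4 (AT1G53160) the values were 10.8, 9.38 and 8.10 CPM outdoors against 1.56, 2.07 and 2.72 CPM indoors (2.14 ± 0.21, adjusted p = 1.97e-07). Every outdoor library exceeded every indoor library for both genes. SPL5 (AT3G15270), the closest relative of these small SPL genes, read 2.96, 3.58 and 2.79 CPM outdoors against 1.37, 1.59 and 2.1 CPM indoors (0.88 ± 0.26, adjusted p = 0.011). It lost its call in libraries thinned to equal depth (0.57) and without outdoor replicate 2 (0.77). Of the larger SPL factors, SPL9 (AT2G42200) read 8.45, 6.92 and 9.42 CPM outdoors against 4.18, 6.10 and 4.89 CPM indoors (0.70 ± 0.18, adjusted p = 0.00392). SPL15 (AT3G57920) did not pass at 0.42 ± 0.28 (adjusted p = 0.248). SPL5, SPL9, SPL15, AGL24, TOE2 and TOE3 fall outside the rule for naming genes and were added after their values were seen.

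More repressors of flowering fell than rose. Of 20 tested members, 2 rose (10%) and 8 fell (40.0%), with a median of -0.18. DESeq2 called 5 of them lower. Among the miR172-targeted AP2-like factors, SMZ (AT3G54990) read 1.33, 0.741 and 0.398 CPM outdoors against 3.06, 2.68 and 2.35 CPM indoors (-1.73 ± 0.35). SNZ (AT2G39250) stood at 19.4, 21.2 and 18 CPM outdoors against 31.5, 33.2 and 28.6 CPM indoors (-0.68 ± 0.10, adjusted p = 3.7e-05). TOE1 (AT2G28550) was lower as well, with 22.1, 24.7 and 21.0 CPM outdoors against 33.5, 32.3 and 28.8 CPM indoors (-0.48 ± 0.10, adjusted p = 0.000837). All 3 had the outdoor libraries below the indoor ones. TOE2 (AT5G60120) was lower by a similar amount (-0.44 ± 0.12, adjusted p = 0.00811), a call lost in the fit of 18 libraries (adjusted p = 0.059). TOE3 (AT5G67180) did not pass at -0.21 ± 0.17 (adjusted p = 0.356). CDF1 (AT5G62430), a repressor of CO and FT in the morning, read 2.22, 3.83 and 2.92 CPM outdoors against 10.4, 6.22 and 8.60 CPM indoors (-1.47 ± 0.23, adjusted p = 5.24e-05). FLC (AT5G10140), the repressor removed by vernalization, read 7.26, 5.43 and 7.03 CPM outdoors against 6.43, 6.89 and 6.55 CPM indoors and the libraries of the groups overlapped (-0.02 ± 0.16, adjusted p = 0.933).

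The 2 repressors that rose were TEM1 and TFL1. TEM1 (AT1G25560), a direct repressor of FT, read 19.1, 17 and 14.3 CPM outdoors against 10.4, 7.81 and 8.78 CPM indoors (0.90 ± 0.14, adjusted p = 3.99e-05). TFL1 (AT5G03840), which keeps the shoot apex indeterminate and is known to rise in the inflorescence meristem, read 1.48, 1.24 and 1.59 CPM outdoors against 0.375, 0.488 and 0.557 CPM indoors (1.57 ± 0.38). It passed the filter on low counts only through the outdoor group, so its values are given without a test.

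**Figure D2:**
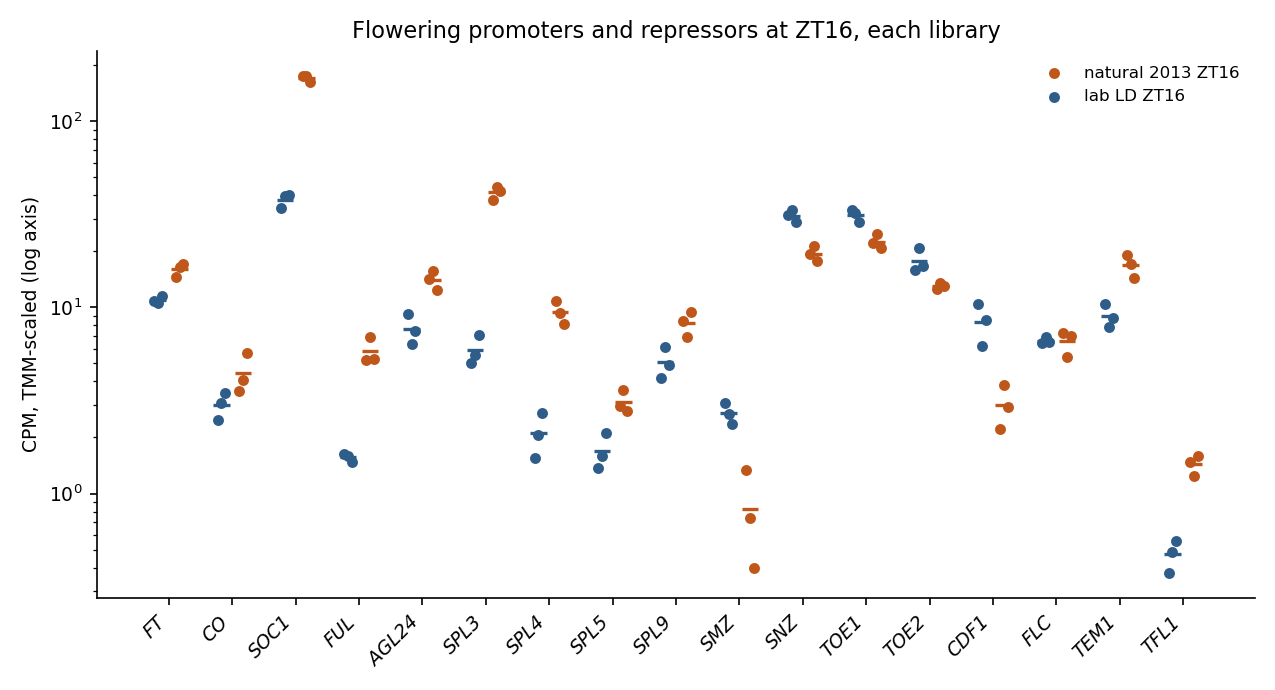
Points are the 3 libraries of each group and short lines their means, in CPM on a log axis, for 17 flowering genes at ZT16. SOC1 (162 to 176 CPM outdoors) and SPL3 (37.8 to 44.6 CPM) stand clear of the indoor libraries, FLC overlaps, and the AP2-like repressors and CDF1 lie lower outdoors.

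Floral organ identity genes were present at low levels in the outdoor libraries and near 0 in the indoor ones. Of 12 markers, 5 passed the filter on low counts. They passed only through the outdoor group, so their values are given without a test. The summed level of the 12 was 15.6 to 20.5 CPM outdoors and 1.75 to 2.78 CPM indoors. AP1 (AT1G69120), which starts the floral meristem, had 33 counts over the outdoor libraries and 0 indoors, at least 23.9-fold higher on a floor of 3 counts over the group. AP3 (AT3G54340), a petal and stamen gene, had 39 counts against 1, a ratio of 84.7 with an exact 95% counting interval of 14.3 to 3428. SEP3 (AT1G24260), a cofactor of the floral MADS proteins, read 2.96, 4.69 and 4.64 CPM outdoors against 0.375, 0.427 and 0.247 CPM indoors. Its relative SEP1 (AT5G15800) read 2.52, 3.21 and 1.86 CPM outdoors against 0.0624, 0.122 and 0.247 CPM indoors. For both genes every outdoor library lay above every indoor one. Intervals and floors cover counting error only. What part floral primordia have in the difference of SOC1, FUL and the SPL genes was not tested.

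Clock genes of the morning list changed in both directions. Of 8 tested morning genes, 2 rose and 3 fell (25% and 38%). RVE8 (AT3G09600), a MYB-like activator of the evening genes, read 1.48, 1.73 and 1.59 CPM outdoors against 10.5, 9.82 and 10.9 CPM indoors, 6.45-fold lower (log2 fold change -2.69 ± 0.19, adjusted p = 4.34e-09). LHY (AT1G01060) read 1.93, 1.24 and 1.19 CPM outdoors against 4.93, 6.34 and 8.41 CPM indoors (-2.19 ± 0.27, adjusted p = 4.7e-06). Its partner CCA1 (AT2G46830) was low in both groups, with 1.04, 1.11 and 0.531 CPM outdoors against 1.5, 2.01 and 1.61 CPM indoors (-0.93 ± 0.35). CCA1 is counted among the 3 that fell, but its values are given without a test. Its place in that count did not hold under 9 of 15 alternatives, including each of the 6 fits that left out 1 library. PRR7 (AT5G02810), a repressor of CCA1 and LHY, was higher, at 6.52, 6.54 and 7.56 CPM outdoors against 3.56, 3.72 and 3.03 CPM indoors (1.00 ± 0.18, adjusted p = 0.000201), and RVE4 (AT5G02840) was higher by 0.36 ± 0.09 (adjusted p = 0.00331). RVE1 (AT5G17300), which links the clock to auxin, did not pass (-0.16 ± 0.21, adjusted p = 0.593).

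Among 10 evening genes, LUX and ELF4 fell, 20% of the list. LUX (AT3G46640), the DNA-binding subunit of the evening complex, read 13.5, 14.7 and 12.9 CPM outdoors against 31.9, 27.3 and 30.5 CPM indoors (-1.12 ± 0.11, adjusted p = 1.79e-07). ELF4 (AT2G40080), another subunit, was lower (-0.23 ± 0.08, adjusted p = 0.0322), and 7 alternatives did not call it, among them the fits without any of the 3 outdoor libraries or without indoor replicates 1 or 2. TOC1 (AT5G61380), the repressor of the dawn genes, had overlapping libraries at 26.4, 27.3 and 26.7 CPM outdoors against 24.6, 29.2 and 26.6 CPM indoors (adjusted p = 0.984).

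Promoters of 4 genes are shown because most morning clock genes and several early flavonoid genes, a list that fell throughout, hold the same motif. They are the 250 bases before the annotated start, read from RefSeq TAIR10.1, with the G-box in capitals, the element that HY5 and the PIF factors are known to bind.
CCA1: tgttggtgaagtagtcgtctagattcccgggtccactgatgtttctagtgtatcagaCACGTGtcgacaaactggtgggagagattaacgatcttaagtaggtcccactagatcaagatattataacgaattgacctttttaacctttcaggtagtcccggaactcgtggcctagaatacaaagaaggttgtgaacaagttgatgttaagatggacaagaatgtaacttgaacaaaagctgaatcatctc
LHY: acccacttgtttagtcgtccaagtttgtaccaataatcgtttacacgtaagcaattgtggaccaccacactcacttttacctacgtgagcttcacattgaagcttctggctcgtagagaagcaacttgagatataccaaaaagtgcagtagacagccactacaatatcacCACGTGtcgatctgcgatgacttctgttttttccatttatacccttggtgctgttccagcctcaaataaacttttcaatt
CHS: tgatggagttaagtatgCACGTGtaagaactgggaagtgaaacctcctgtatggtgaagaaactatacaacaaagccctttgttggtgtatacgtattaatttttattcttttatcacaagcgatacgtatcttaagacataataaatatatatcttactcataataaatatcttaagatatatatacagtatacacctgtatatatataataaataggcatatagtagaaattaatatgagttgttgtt
F3H: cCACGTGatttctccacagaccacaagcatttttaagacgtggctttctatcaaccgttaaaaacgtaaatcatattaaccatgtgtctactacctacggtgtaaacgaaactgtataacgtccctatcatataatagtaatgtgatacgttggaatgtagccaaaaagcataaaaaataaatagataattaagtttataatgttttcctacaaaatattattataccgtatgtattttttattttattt
They lie at chr2:19245341-19245590 (plus strand), chr1:37872-38121 (minus strand), chr5:4488226-4488475 (plus strand) and chr3:19024942-19025191 (plus strand). The G-box (CACGTG, which reads the same on both strands) was searched from 250 bases before to 50 after the start. It was present in 7 of the 8 tested morning clock genes and in 4 of the 9 tested early flavonoid genes, against 8.92% of 17809 promoters read. Among all genes higher outdoors 8.16% held it, and among all genes lower 11.0%. The evening element (AAAATATCT, either strand) was present in 3 of 10 evening genes and 3.06% of all promoters. Cores of the CBF site and the heat shock element and a TCP-type site (GGCCCA) were searched as well. Over all called genes the TCP-type site had a wider gap than the G-box. It was in 22.3% of genes higher, 16.5% of genes lower and 19.7% of all promoters. Among genes changed at least 2-fold it was in 10.4% of those higher and 8.06% of those lower. Both shares lie below that of all promoters. The G-box was in 8.40% and 11.2% of the same genes. These are matches of letters and not binding sites.

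Several markers of shade were higher outdoors, under fabric described as neutral in red and far-red light. Of 18 tested members, 8 rose (44.4%) and 3 fell (16.7%), with a median of 0.33. Without outdoor replicate 2 or 3, 1 fell. HFR1 (AT1G02340), an inhibitor of PIF factors induced by low red to far-red light, read 8.15, 9.88 and 9.42 CPM outdoors against 0.749, 0.427 and 1.24 CPM indoors, 11.3-fold higher (log2 fold change 3.5 ± 0.26). Its fellow early marker PIL1 (AT2G46970) read 3.11, 3.71 and 2.12 CPM outdoors against 0.687, 0.427 and 0.866 CPM indoors (2.16 ± 0.33). Both were low indoors and passed the filter on low counts only through the outdoor group, so their values are given without a test. ATHB2 (AT4G16780), a homeodomain factor of elongation, read 11.0, 12.6 and 9.95 CPM outdoors against 3.12, 2.81 and 2.97 CPM indoors (1.91 ± 0.16, adjusted p = 4.45e-08). XTH15 (AT4G14130), a wall enzyme of petiole growth in shade, read 13.6, 12.3 and 14.9 CPM outdoors against 2.94, 2.75 and 3.90 CPM indoors (2.09 ± 0.16, adjusted p = 1.41e-08). PIF4 (AT2G43010), the factor at the head of warm and shade growth, read 3.26, 3.71 and 3.05 CPM outdoors against 2.06, 1.71 and 2.97 CPM indoors and missed the threshold (0.57 ± 0.25, adjusted p = 0.0802). It passed without indoor replicate 3 (0.82) and in the fit of 18 libraries (0.58). BBX24 (AT1G06040), a B-box protein of light signalling, was lower (-0.36 ± 0.09, adjusted p = 0.00304).

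Photoreceptor genes differed among themselves. Of 16 tested members of photoreceptor signalling, 3 rose and 5 fell (18.8% and 31.2%), the same under every one of the 15 alternatives as counts. PHYA (AT1G09570), the phytochrome that accumulates in darkness, read 30.4, 27.5 and 29.2 CPM outdoors against 17.2, 20.2 and 21.0 CPM indoors (0.57 ± 0.10, adjusted p = 0.000176). PHYE (AT4G18130), a light-stable phytochrome, was lower at 5.63, 6.54 and 6.50 CPM outdoors against 14.9, 12.1 and 14.9 CPM indoors (-1.16 ± 0.14, adjusted p = 3.39e-06). The main shade receptor gene PHYB (AT2G18790) did not pass (0.17 ± 0.11, adjusted p = 0.237). CRY2 (AT1G04400), the blue light receptor that stabilises CO, read 67.4, 67.0 and 69.3 CPM outdoors against 53.1, 43.5 and 49.2 CPM indoors (0.48 ± 0.08, adjusted p = 0.000173). COP1 and SPA1, subunits of the ubiquitin ligase that degrades CO and HY5, were both lower. COP1 (AT2G32950) read 13.8, 14.1 and 13.3 CPM outdoors against 24.5, 21.1 and 21.6 CPM indoors (-0.71 ± 0.11, adjusted p = 4.37e-05). SPA1 (AT2G46340) read 12.7, 13.3 and 11.5 CPM outdoors against 27.6, 27.0 and 24.6 CPM indoors (-1.07 ± 0.11, adjusted p = 3.52e-07).

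Most genes of the UV-B and high light response were lower outdoors in the evening. Of 15 tested members, 9 fell (60.0%) and 2 rose (13.3%), with a median of -0.78. HY5 (AT5G11260), the bZIP factor of light responses, read 9.63, 6.92 and 8.10 CPM outdoors against 13.7, 13.5 and 13.4 CPM indoors (-0.73 ± 0.13, adjusted p = 0.000231). Its homologue HYH (AT3G17609) read 6.67, 8.27 and 6.37 CPM outdoors against 14.6, 12.1 and 13.7 CPM indoors (-0.91 ± 0.14, adjusted p = 4.13e-05). RUP2 (AT5G23730), which resets the UV-B receptor, stood at 2.08, 2.47 and 2.39 CPM outdoors against 7.37, 7.01 and 6.18 CPM indoors (-1.56 ± 0.20, adjusted p = 5.11e-06). SIG5 (AT5G24120), a light-induced sigma factor of the chloroplast, was lower (-1.43 ± 0.16, adjusted p = 1.42e-06). ELIP2 (AT4G14690), an early light-induced protein gene, did not pass (-0.49 ± 0.32, adjusted p = 0.236). The members that rose were the B-box genes BBX20 (1.13 ± 0.24, adjusted p = 0.0011) and BBX21 (0.64 ± 0.10, adjusted p = 7.95e-05), of which BBX21 is known to activate HY5.

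Early flavonoid synthesis was lower outdoors throughout. All 9 tested members of the early pathway fell, 100% of those tested, with no overlap of the libraries, and the median was -0.93. The other 2 of its 11 matched members were too low to test. Under the 15 alternatives 8 or 9 fell. CHS (AT5G13930), the chalcone synthase that opens the pathway, read 208, 232 and 180.1 CPM outdoors against 423, 394 and 371 CPM indoors, 1.92-fold lower (log2 fold change -0.94 ± 0.09, adjusted p = 1.23e-07). F3H (AT3G51240), the flavanone hydroxylase, read 71.1, 69.3 and 57.3 CPM outdoors against 119.9, 126 and 119 CPM indoors (-0.89 ± 0.08, adjusted p = 1.9e-07). FLS1 (AT5G08640), the flavonol synthase, read 75.7, 83.6 and 65.8 CPM outdoors against 162, 150.4 and 142 CPM indoors (-1.01 ± 0.09, adjusted p = 6.35e-08). UGT78D2 (AT5G17050), a glucosyltransferase of flavonols and anthocyanins, read 17.2, 20.2 and 17.1 CPM outdoors against 58.1, 46.2 and 44.7 CPM indoors (-1.45 ± 0.12, adjusted p = 2.16e-08). For all 4 genes every indoor library exceeded every outdoor library.

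The late branch to anthocyanin was less clear. Of 11 tested members, 4 fell (36.4%) and 7 did not pass. MYB75 (AT1G56650), its activator, read 2.22, 1.6 and 0.929 CPM outdoors against 11.4, 11.5 and 5.63 CPM indoors (-2.60 ± 0.32, adjusted p = 4.19e-06). DFR (AT5G42800), its first enzyme, read 32.0, 28.2 and 18.3 CPM outdoors against 33.2, 38.0 and 20.5 CPM indoors with overlapping groups (-0.23 ± 0.19, adjusted p = 0.349). Indoor replicate 3 was low for both genes. Without it 7 members fell, and without outdoor replicate 1 there were 8, while 2 fell without outdoor replicate 3 or indoor replicate 1. DESeq2 called 1 member lower.

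**Figure D3:**
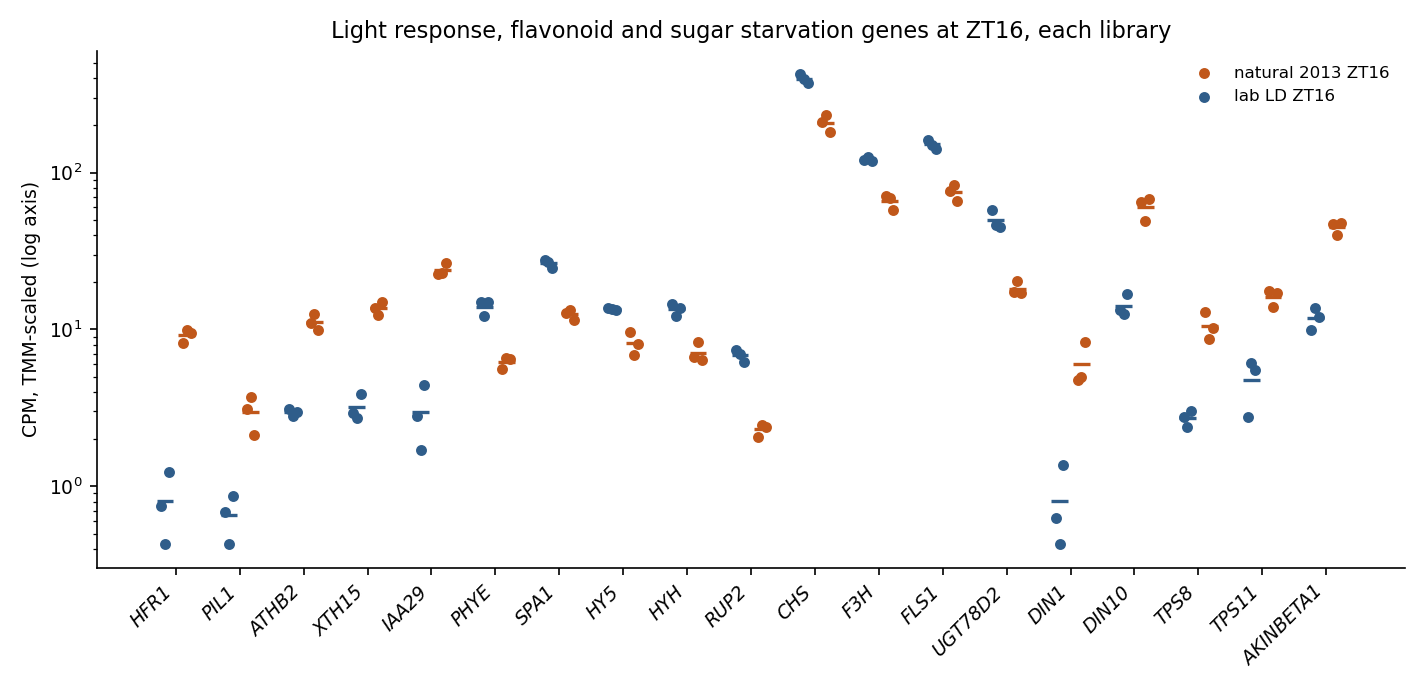
Points are the 3 libraries of each group and short lines their means, in CPM on a log axis, for 19 genes of shade, light signalling, flavonoid synthesis and sugar starvation at ZT16. The shade and sugar starvation genes shown lie higher outdoors, and the light signalling and flavonoid genes shown lie lower. PHYA, CRY2, BBX20 and BBX21, not shown, were higher. The groups do not overlap for any gene shown, a condition under which called list members were chosen.

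Genes known from darkness and sugar starvation were higher outdoors at dusk. Of 13 tested members, 8 rose (61.5%) and 5 did not pass, with a median of 0.94. DIN10 (AT5G20250), a raffinose synthase homologue induced in the dark, read 64.5, 49.0 and 67.7 CPM outdoors against 13.4, 12.5 and 16.7 CPM indoors (2.08 ± 0.12, adjusted p = 4.24e-10). AKINBETA1 (AT5G21170), a subunit of the energy-sensing kinase SnRK1, read 47.1, 39.8 and 47.6 CPM outdoors against 9.87, 13.6 and 11.9 CPM indoors (1.92 ± 0.11, adjusted p = 4.77e-10). The trehalose-phosphate synthase homologues TPS8 (AT1G70290) and TPS11 (AT2G18700), repressed by sugar, moved with them. TPS8 read 12.9, 8.64 and 10.2 CPM outdoors against 2.75, 2.38 and 3.03 CPM indoors (1.95 ± 0.18, adjusted p = 1.76e-07). TPS11 read 18, 13.9 and 17 CPM outdoors against 2.75, 6.10 and 5.50 CPM indoors (1.75 ± 0.20, adjusted p = 1.26e-06). DIN1 (AT4G35770), also known from senescence, was at 4.74, 4.94 and 8.36 CPM outdoors against 0.624, 0.427 and 1.36 CPM indoors (2.89 ± 0.33). For all 5 the outdoor libraries lay above the indoor ones. DIN3 (AT3G06850) did not pass (0.36 ± 0.15, adjusted p = 0.0674), except without indoor replicate 3 (0.47). AT3G15450, annotated as an aluminium-induced protein with YGL and LRDR motifs, was outside the list and read 219, 126 and 311 CPM outdoors against 16.9, 22 and 24.9 CPM indoors (3.36 ± 0.22, adjusted p = 1.78e-09).

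More starch genes fell than rose. Of 23 tested, 10 fell (43.5%) and 2 rose (8.7%), with a median of -0.21, and 6 fell in the fit of 18 libraries. Leaving out outdoor replicate 1, outdoor replicate 3 or indoor replicate 3 each left 1 that rose. GBSS1 (AT1G32900), the synthase of amylose, read 0.445, 0.864 and 0.663 CPM outdoors against 7.06, 8.72 and 7.48 CPM indoors and was 11.4-fold lower (log2 fold change -3.52 ± 0.27). BAM3 (AT4G17090), the main beta-amylase of the chloroplast, read 166, 162 and 179.5 CPM outdoors against 408, 364 and 378 CPM indoors (-1.18 ± 0.07, adjusted p = 9.11e-10). APL3 (AT4G39210), a sugar-induced subunit of ADP-glucose pyrophosphorylase, read 10.5, 8.64 and 7.83 CPM outdoors against 25.4, 18.9 and 17.5 CPM indoors (-1.20 ± 0.16, adjusted p = 6.89e-06). SS1 (AT5G24300), a starch synthase, was higher by 0.46 ± 0.07 (adjusted p = 6.48e-05).

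Photosynthesis genes changed in both directions. Of 26 tested, 9 rose (34.6%) and 7 fell (26.9%), with a median of 0.03. RCA (AT2G39730), the Rubisco activase, read 6283, 6141 and 6745 CPM outdoors against 3256, 3441 and 3319 CPM indoors (0.94 ± 0.07, adjusted p = 6.83e-09), and RBCS1A (AT1G67090), a Rubisco small subunit, differed by 0.60 ± 0.08 (adjusted p = 6.99e-06). Both named LHCB2 genes, which encode antenna proteins of photosystem II, were lower. LHCB2.1 (AT2G05100) read 93.4, 107 and 108 CPM outdoors against 397, 404 and 439 CPM indoors (-2.01 ± 0.08, adjusted p = 3.04e-12), and LHCB2.3 (AT3G27690) read 11.9, 14.3 and 15 CPM outdoors against 96.6, 89.9 and 100 CPM indoors (-2.79 ± 0.10, adjusted p = 1.49e-12). LHCB6 (AT1G15820) differed by -0.72 ± 0.07 (adjusted p = 3.74e-07). LHCB1.1 (AT1G29920) did not pass (-0.15 ± 0.07, adjusted p = 0.102), but did with upper-quartile scaling (-0.19). Near-identical copies of the LHCB1, LHCB2 and RBCS genes may share reads, and their values are uncertain as single genes.

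Chlorophyll synthesis had 5 of 13 tested members lower (38.5%) and 1 higher, or 2 higher without indoor replicate 3. CRD1 (AT3G56940), a cyclase of the pathway, read 442, 443 and 470.0 CPM outdoors against 957, 978 and 995 CPM indoors (-1.11 ± 0.07, adjusted p = 4.77e-10). GUN4 (AT3G59400), an activator of magnesium chelatase, read 18.4, 20 and 24.9 CPM outdoors against 55.6, 38.2 and 53.3 CPM indoors (-1.21 ± 0.14, adjusted p = 1.19e-06), and PORB (AT4G27440), a protochlorophyllide reductase, was lower (-0.61 ± 0.08, adjusted p = 3.74e-06). CAO (AT2G47450), which makes chlorophyll b, was higher by 0.34 ± 0.07 (adjusted p = 0.000508). Of 13 carotenoid genes 2 rose and 3 fell, close to the background, and 1 rose without outdoor replicate 1 or indoor replicate 1. PSY (AT5G17230), which starts the pathway, fell by 0.91 ± 0.09 on the log2 scale (adjusted p = 2.67e-07). The enzymes of the xanthophyll cycle diverged. ABA1 (AT5G67030), the zeaxanthin epoxidase, read 10, 9.26 and 7.96 CPM outdoors against 21.1, 19.6 and 20.6 CPM indoors (-1.17 ± 0.12, adjusted p = 3.72e-07), and NPQ1 (AT1G08550), the opposing de-epoxidase, read 105, 106 and 113 CPM outdoors against 72.6, 68.7 and 77.1 CPM indoors (0.57 ± 0.08, adjusted p = 8.53e-06).

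Growth hormone lists changed in both directions. Among 17 auxin response genes 5 rose (29%) and 3 fell (18%). IAA29 (AT4G32280), an auxin-inducible repressor known to rise in shade, read 22.7, 22.8 and 26.7 CPM outdoors against 2.81, 1.71 and 4.45 CPM indoors (3.01 ± 0.19, adjusted p = 1.4e-09). GH3.5 (AT4G27260), which conjugates auxin to amino acids, read 11.6, 11.6 and 10.6 CPM outdoors against 5.75, 6.71 and 4.14 CPM indoors (1.02 ± 0.16, adjusted p = 6.94e-05). IAA3 (AT1G04240) was lower (-0.95 ± 0.12, adjusted p = 3.24e-06), as was the auxin exporter PIN7 (AT1G23080; -0.58 ± 0.08, adjusted p = 1.45e-05). IAA5 (AT1G15580) did not pass (-0.69 ± 0.30, adjusted p = 0.076). Of 15 gibberellin genes 3 rose (20%) and 6 fell (40.0%). GASA4 (AT5G15230), a gibberellin-induced peptide gene, read 178, 164 and 159.8 CPM outdoors against 104, 98.8 and 102 CPM indoors (0.72 ± 0.07, adjusted p = 3.49e-07), and RGL2 (AT3G03450), a DELLA repressor, read 1.48, 2.47 and 1.46 CPM outdoors against 4.50, 5.61 and 4.45 CPM indoors (-1.41 ± 0.25, adjusted p = 0.000168).

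Of 14 brassinosteroid genes 4 rose (28.6%) and 3 fell (21.4%), and 4 rose under each alternative. Without outdoor replicate 1, 1 fell. DWF1 (AT3G19820) and CPD (AT5G05690), both enzymes of brassinosteroid synthesis, rose. DWF1 read 854, 739 and 790.2 CPM outdoors against 402, 472 and 457 CPM indoors (0.84 ± 0.08, adjusted p = 1.23e-07), and CPD differed by 0.65 ± 0.07 (adjusted p = 1.15e-06). BES1 (AT1G19350), a transcription factor of the pathway, was lower (-0.47 ± 0.08, adjusted p = 0.000136). The 16 wall loosening genes gave 5 higher and 6 lower. EXPA5 (AT3G29030), an expansin, was lower (-0.54 ± 0.08, adjusted p = 3.14e-05) and XTH9 (AT4G03210), a xyloglucan hydrolase of the shoot, was higher (0.42 ± 0.08, adjusted p = 0.000366). Without indoor replicate 1 there were 2 wall genes that rose, and without outdoor replicate 3 there were 3.

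Genes of dividing cells were higher outdoors. Of 20 tested members of the cell division list, 10 rose (50%) and 2 fell (10%), with a median of 0.40, and 9 or 10 rose under each alternative. Of the 2 that fell, 1 was left without outdoor replicates 2 or 3 or indoor replicates 1 or 3, and neither without outdoor replicate 1. CDKB2;1 (AT1G76540), a mitotic kinase, read 29.2, 29.9 and 33.2 CPM outdoors against 15.8, 14.8 and 19.0 CPM indoors (0.89 ± 0.11, adjusted p = 2.78e-06). KNOLLE (AT1G08560), the syntaxin of the new cell plate, read 69.9, 60.9 and 60.8 CPM outdoors against 36.5, 38.7 and 36.7 CPM indoors (0.77 ± 0.08, adjusted p = 7.95e-07). No indoor library reached the outdoor range for these 2 genes. The floral markers given above moved in the same libraries, and their part in the mitotic genes was not tested.

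Jasmonate genes changed in both directions. Of 19 tested members, 5 rose (26.3%) and 9 fell (47.4%), with a median of -0.42. Without outdoor replicate 3 or indoor replicate 3, 3 rose. MYC2 (AT1G32640), the central transcription factor, read 13.5, 12.6 and 13.5 CPM outdoors against 39.5, 39.1 and 25.4 CPM indoors (-1.39 ± 0.15, adjusted p = 9.31e-07). AOS (AT5G42650), the allene oxide synthase of jasmonate synthesis, read 163, 159 and 204 CPM outdoors against 364, 353 and 306 CPM indoors (-0.96 ± 0.09, adjusted p = 2.34e-07). AOC1 (AT3G25760) and LOX3 (AT1G17420), enzymes beside it, fell by 1.09 ± 0.15 and 1.02 ± 0.19 on the log2 scale (adjusted p = 1.61e-05 and 0.000317). VSP2 (AT5G24770), a vegetative storage protein, read 246, 332 and 307 CPM outdoors against 102, 169.8 and 48.7 CPM indoors (1.46 ± 0.25, adjusted p = 0.000143). VSP1 (AT5G24780) read 91.0, 101 and 160.3 CPM outdoors against 34.9, 60.6 and 18.9 CPM indoors (1.62 ± 0.26, adjusted p = 6.69e-05). Indoor replicate 3 was the lowest library for both and the groups did not overlap, and reads of VSP1 and VSP2, like those of the AOC genes, may be shared between copies.

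Abscisic acid and drought genes more often fell than rose, with 9 of 19 tested members falling (47.4%) and 1 rising (5.3%) and a median of -0.43. The member that rose was lost in every fit that left out a library other than indoor replicate 2. It was also not called with DESeq2, upper-quartile scaling, thinning, the replicate block, either other filter or the fit of 18 libraries. HAB1 (AT1G72770), a phosphatase that damps abscisic acid signalling, read 8.60, 8.52 and 8.62 CPM outdoors against 17.3, 18 and 16.8 CPM indoors (-1.02 ± 0.12, adjusted p = 1.57e-06). HB12 (AT3G61890), a drought-induced homeodomain gene, read 5.04, 5.43 and 7.70 CPM outdoors against 14.7, 14.1 and 12.6 CPM indoors (-1.18 ± 0.15, adjusted p = 6.28e-06). RD22 (AT5G25610), a dehydration marker, was lower (-0.71 ± 0.10, adjusted p = 1.35e-05). NCED3 (AT3G14440), which controls abscisic acid synthesis in drought, did not pass (-0.73 ± 0.40, adjusted p = 0.156). Of 14 ethylene genes 4 rose and 3 fell, and of 14 salicylic acid and defence genes 2 rose and 1 fell. The 11 touch genes, relevant to wind, gave 1 higher and 2 lower, and the 12 senescence genes 1 and 3. Some of these small counts moved by more than 1.5 times without 1 library: no touch gene rose without outdoor replicate 3 or indoor replicate 1, no defence gene without outdoor replicate 2, and no senescence gene without outdoor replicates 1 or 3 or indoor replicate 3. Without indoor replicate 3, 2 defence genes fell, and without outdoor replicate 2 the senescence list had 2 that rose and 1 that fell.

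Temperature genes gave no single direction. Of 13 tested cold response genes 7 fell (53.8%) and 2 rose (15.4%). The number that fell was 3 without indoor replicate 1, 4 without outdoor replicate 1, and 2 by DESeq2 or in the fit of 18 libraries. ZAT6 (AT5G04340), a stress-induced zinc finger gene, was lower at 0.148, 0.123 and 0.398 CPM outdoors against 1.44, 3.48 and 1.3 CPM indoors (-3.16 ± 0.62). COR27 (AT5G42900), a cold- and clock-regulated gene, was higher at 18, 16.6 and 18 CPM outdoors against 9.43, 8.48 and 7.98 CPM indoors (1.01 ± 0.12, adjusted p = 1.88e-06). Of 11 tested heat genes 2 rose and 4 fell. DREB2A (AT5G05410), a drought and heat activator, read 0.889, 0.864 and 0.796 CPM outdoors against 1.81, 3.72 and 2.60 CPM indoors (-1.67 ± 0.36). The chaperone gene ROF2 (AT5G48570) read 5.33, 5.06 and 4.78 CPM outdoors against 2.37, 2.44 and 2.72 CPM indoors (1.00 ± 0.20, adjusted p = 0.000538).

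Genes of iron uptake were lower outdoors. Of 14 tested members of the iron list, 9 fell (64.3%) and 2 rose (14.3%), with a median of -0.55. Without outdoor replicate 3 or indoor replicate 1, 1 rose. FRO2 (AT1G01580), the root ferric reductase, read 0.593, 2.1 and 1.33 CPM outdoors against 4.18, 2.75 and 7.11 CPM indoors (-1.75 ± 0.39). IRT1 (AT4G19690), the root iron transporter, read 0.296, 4.08 and 1.19 CPM outdoors against 4.12, 5.49 and 7.67 CPM indoors (-1.56 ± 0.40). The values of both genes are given without a test, and DESeq2 did not call IRT1. FIT (AT2G28160), their activator, read 1.19, 1.24 and 1.06 CPM outdoors against 2.44, 3.35 and 2.78 CPM indoors (-1.29 ± 0.29, adjusted p = 0.00146). The ferritin gene FER1 (AT5G01600), which stores iron, was lower at 44.3, 29.4 and 42.6 CPM outdoors against 67.6, 79.2 and 80.5 CPM indoors (-0.97 ± 0.12, adjusted p = 2.67e-06), while FER4 (AT2G40300) was higher by 0.43 ± 0.09 (adjusted p = 0.000914). Root markers moved with them. Of 16 matched, 9 were tested and 4 of these fell (44.4%), and the sum over the list was 91.7 to 99.9 CPM outdoors and 125 to 138.5 CPM indoors. By DESeq2, or with a mean of at least 5 CPM, 2 fell. Without outdoor replicate 3 or indoor replicate 2, 1 root marker rose. None of the 16 was at 0 in all 6 libraries. TIP2;3 (AT5G47450), a root aquaporin, read 3.56, 4.45 and 5.57 CPM outdoors against 16.5, 22.8 and 23.1 CPM indoors (-2.19 ± 0.17, adjusted p = 2.06e-08), and RCI3 (AT1G05260), a root peroxidase, read 7.41, 8.03 and 7.56 CPM outdoors against 14.1, 17.3 and 14.3 CPM indoors (-0.99 ± 0.13, adjusted p = 1.02e-05). SCR (AT3G54220), the endodermis regulator, did not pass (-0.10 ± 0.10, adjusted p = 0.439). What part a smaller share of root RNA has in the iron genes was not tested.

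Copper enzymes were higher. Of 12 tested members of the copper and superoxide dismutase list, 7 rose (58.3%) and 2 fell (16.7%), and 7 rose under each alternative. Without outdoor replicate 1 or indoor replicate 1, 1 fell. CSD2 (AT2G28190), the copper-zinc superoxide dismutase of the chloroplast, read 372, 252 and 267 CPM outdoors against 121, 118 and 127 CPM indoors (1.28 ± 0.11, adjusted p = 4.17e-08). CSD1 (AT1G08830), its cytosolic counterpart, read 169.7, 126 and 131 CPM outdoors against 80.9, 85.7 and 94.6 CPM indoors (0.71 ± 0.10, adjusted p = 1.43e-05). CCS (AT1G12520), the chaperone that loads copper into both, read 26.7, 21.6 and 20 CPM outdoors against 10.9, 9.64 and 12.1 CPM indoors (1.06 ± 0.12, adjusted p = 2.23e-06). Outdoor replicate 1 was the highest for all 3 genes. FSD2 (AT5G51100), a plastid iron superoxide dismutase, rose too (0.85 ± 0.09, adjusted p = 4.89e-07), whereas FSD1 (AT4G25100), the iron form known to replace the copper form when copper is short, did not pass (-0.12 ± 0.07, adjusted p = 0.183). COPT2 (AT3G46900), a copper transporter induced by copper shortage, was lower at 6.82, 6.92 and 6.24 CPM outdoors against 13.6, 13.7 and 13.1 CPM indoors (-1.01 ± 0.13, adjusted p = 4.98e-06).

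Other nutrient lists were mixed. ATSDI1 (AT5G48850), a sulphur deficiency-induced gene known to repress glucosinolate synthesis, read 30.7, 35.7 and 26.9 CPM outdoors against 3.37, 3.42 and 4.70 CPM indoors (3.02 ± 0.14, adjusted p = 2.57e-11). Of 19 glucosinolate genes 9 fell (47.4%) and 10 did not pass. MYB34 (AT5G60890), an activator of indole glucosinolates, read 8.15, 6.92 and 7.43 CPM outdoors against 19.9, 19.9 and 15.8 CPM indoors (-1.31 ± 0.14, adjusted p = 5.37e-07), and SOT18 (AT1G74090), a sulphotransferase of the last step, read 39.9, 50.9 and 51.2 CPM outdoors against 84.7, 81.6 and 72.8 CPM indoors (-0.75 ± 0.10, adjusted p = 5.81e-06). Of 14 phosphate genes 5 rose and 3 fell (3 rose without outdoor replicate 1 or indoor replicate 3), with the uptake transporter PHT1;1 (AT5G43350) lower (-1.27 ± 0.15, adjusted p = 2.78e-06). Of 18 nitrogen genes 3 rose and 5 fell (3 fell without indoor replicate 3), with the nitrate transporter NRT1.1 (AT1G12110) lower (-0.78 ± 0.09, adjusted p = 2.9e-06). The 19 aquaporins gave 5 in each direction, and PIP1;3 (AT1G01620) read 757, 655 and 779 CPM outdoors against 309, 397 and 399 CPM indoors (0.99 ± 0.09, adjusted p = 1.42e-07). Of 20 cuticle and wax genes 7 rose and 7 fell.

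**Figure D4:**
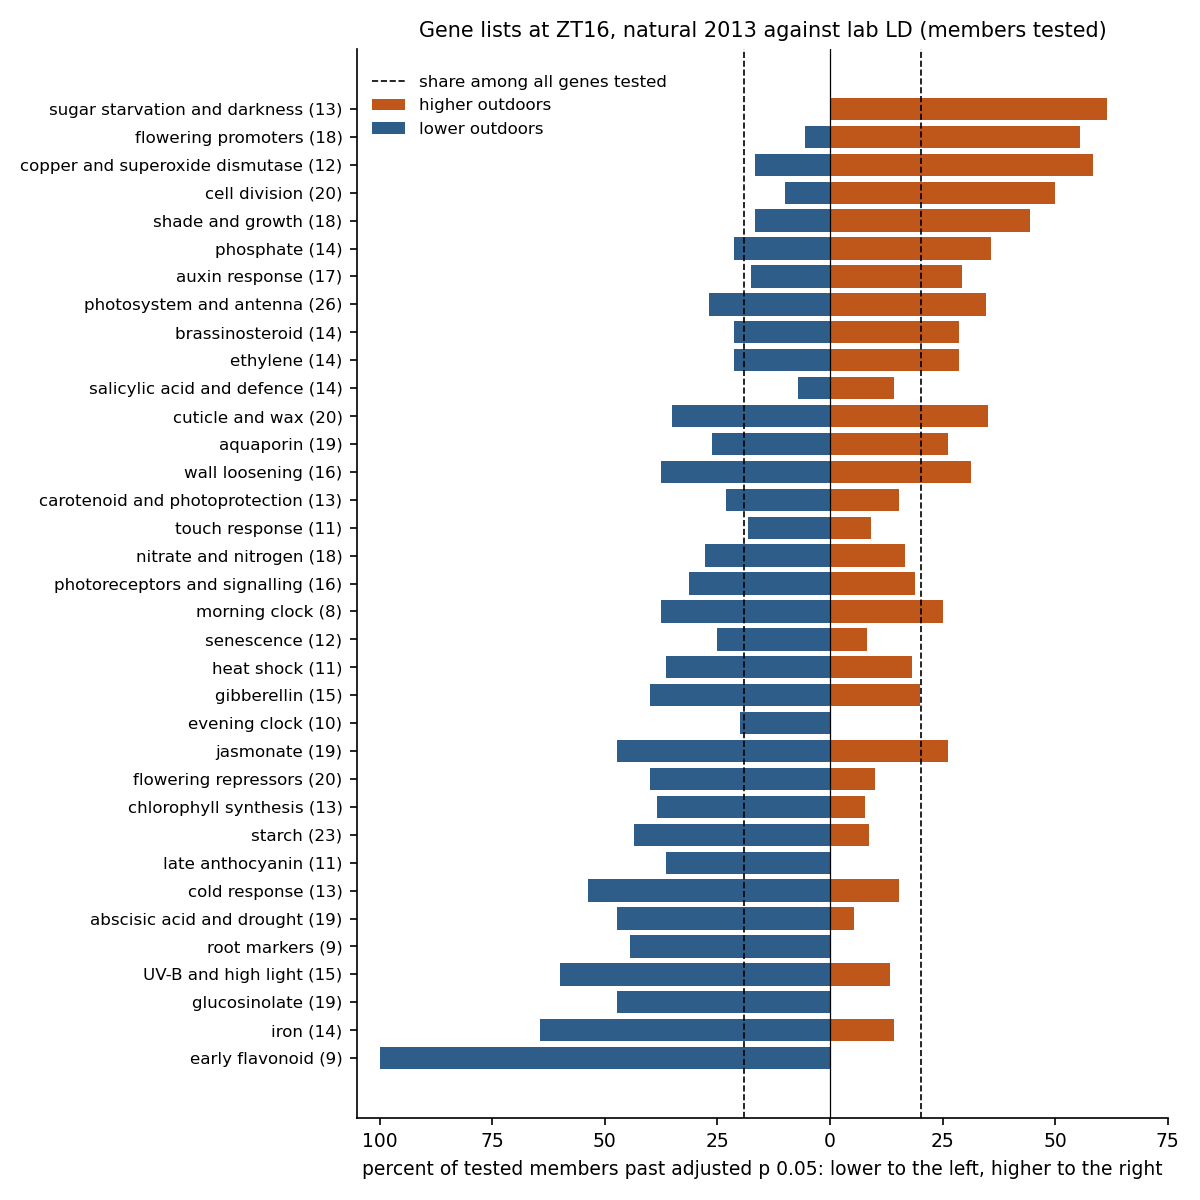
Bars give the percent of tested members of each list past an adjusted p of 0.05, lower outdoors to the left and higher to the right, with the number tested in brackets and lists of under 8 tested members left out. Dashed lines mark the shares among all genes tested, 19.1% lower and 20.1% higher. Sugar starvation, flowering promoter, copper and cell division lists extend farthest right, and the early flavonoid list (100%) farthest left.

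The largest changes genome-wide included genes of no list. Among genes at 5 CPM or more in the higher group, AT3G01345, of unknown function, had 923 counts indoors and 1 outdoors, a ratio of 425 (exact 95% counting interval 76.1 to 16820). AT1G75945, also of unknown function, had 152 counts outdoors and 3 indoors, a ratio of 110.0 (36.9 to 539). Its outdoor libraries spread widely, at 8.0, 1.11 and 11.8 CPM. AT3G28500, annotated as a 60S acidic ribosomal protein, read 22.1, 30.5 and 24.4 CPM outdoors against 2.19, 1.77 and 2.91 CPM indoors (3.49 ± 0.17, adjusted p = 2.84e-11). Others that rose were AT4G34400, a B3-like transcription factor (3.20 ± 0.23, adjusted p = 7.92e-09), and AT1G02190, of the fatty acid hydroxylase family (3.20 ± 0.31). The chloroplast gene ATCG00330, for which polyadenylated RNA is a minor form, read 22.1, 12.3 and 7.43 CPM outdoors against 0.812, 1.95 and 1.85 CPM indoors (3.15 ± 0.33, adjusted p = 5.38e-07). On the lower side, AT2G15020, of unknown function, read 1.93, 0.988 and 2.39 CPM outdoors against 18.4, 15.6 and 18 CPM indoors (-3.29 ± 0.20, adjusted p = 5.07e-10). AT5G17820, annotated as a peroxidase, read 0.741, 0.741 and 0.929 CPM outdoors against 6.62, 7.26 and 7.48 CPM indoors (-3.13 ± 0.25). NDA1 (AT1G07180), an alternative NAD(P)H dehydrogenase, read 2.67, 2.96 and 1.19 CPM outdoors against 16.1, 19.3 and 18.8 CPM indoors (-2.98 ± 0.20, adjusted p = 1.78e-09). AT4G13575, uncharacterized, was lower (-2.72 ± 0.15, adjusted p = 2.49e-10).

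The outdoor difference depended on the time of day for many genes. The difference between natural 2013 and lab LD at ZT16 was set against the same difference at ZT4 in 1 fit of 12 libraries, in which 18375 genes were tested and 3423 (18.6%) passed, 1599 toward a more positive evening effect and 1824 toward a more negative one. The evening libraries are the same as above. FT illustrates it. At ZT4, FT stood at 20.5 ± 4.12 CPM outdoors and 1.89 ± 0.207 CPM indoors, and at ZT16 at 16.0 ± 1.34 and 10.9 ± 0.493 CPM, so that the outdoor effect was smaller in the evening by 2.89 ± 0.23 on the log2 scale (adjusted p = 1.77e-07). For SOC1 the values were 108 ± 12.2 and 67.3 ± 6.79 CPM at ZT4 and 171 ± 8.05 and 37.9 ± 3.20 CPM at ZT16, an effect larger in the evening (1.48 ± 0.15, adjusted p = 2.57e-06). LUX ran from 6.22 ± 0.827 CPM in the morning to 29.9 ± 2.38 CPM in the evening indoors, and outdoors it stood at 13.4 ± 0.682 and 13.7 ± 0.928 CPM (difference of effects -2.23 ± 0.17, adjusted p = 1.56e-07). LHY reached 431 ± 32.5 CPM outdoors and 128 ± 31.9 CPM indoors at ZT4 and had the lower outdoor level at ZT16 (-3.95 ± 0.36, adjusted p = 9.23e-07).

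Some genes crossed over between the times. BAM3 stood at 300.3 ± 30.0 CPM outdoors and 86.1 ± 8.68 CPM indoors in the morning, against 169 ± 9.02 and 384 ± 22.7 CPM in the evening (-2.98 ± 0.14, adjusted p = 1.01e-09). HYH went from 112 ± 4.70 to 7.10 ± 1.02 CPM outdoors and from 24.4 ± 2.88 to 13.4 ± 1.22 CPM indoors (-3.11 ± 0.17, adjusted p = 7.45e-09). TPS11 crossed the other way, from 7.04 ± 1.18 to 16.2 ± 1.96 CPM outdoors and from 28.6 ± 3.08 to 4.78 ± 1.79 CPM indoors (3.75 ± 0.29, adjusted p = 1.77e-07). AT3G15450 had the same pattern, with 16.8 ± 4.90 and 218 ± 92.4 CPM outdoors and 90.7 ± 22.4 and 21.3 ± 4.08 CPM indoors. By list, 11 of 13 sugar starvation genes had a more positive evening effect, with a median difference of 2.0, and 11 of 20 cell division genes did. In the other direction stood 8 of 10 early flavonoid genes (median -1.45) and 10 of 17 UV-B and high light genes (median -1.89). The median over all genes tested was 0.02.

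**Figure D5:**
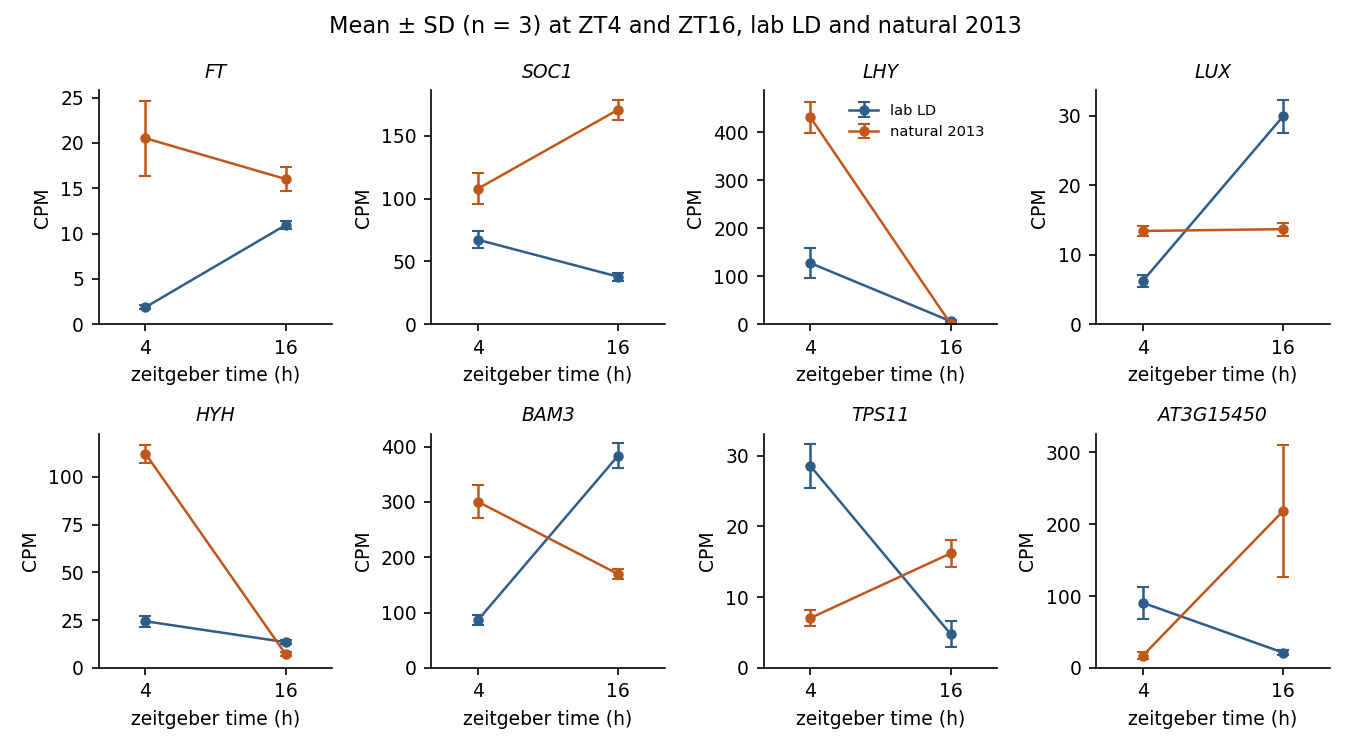
Mean CPM ± SD (n = 3) at ZT4 and ZT16 for 8 genes in lab LD (blue) and natural 2013 (orange). BAM3 and LUX cross from higher to lower outdoors between morning and evening, TPS11 and AT3G15450 cross from lower to higher, and FT and SOC1 are higher outdoors at both times.

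The outdoor libraries were also set beside LD+FR+TEMP at ZT16, a laboratory long day with 730 nm diodes added to set the red to far-red ratio at 1 and a temperature course modelled on Seattle in June 2013. The outdoor libraries are shared with the comparison above. Of 17832 genes tested, 3845 (21.6%) passed, 1827 higher and 2018 lower outdoors. The sum was 2502 without outdoor replicate 1, 2543 without outdoor replicate 3 and 2377 without LD+FR+TEMP replicate 1. HFR1 stood at 4.05 ± 0.724 CPM in LD+FR+TEMP, between lab LD and outdoors (outdoors against LD+FR+TEMP 1.17 ± 0.18, adjusted p = 0.000311). SOC1 stood at 64.2 ± 11.7 CPM (1.41 ± 0.12, adjusted p = 2.82e-06) and FT at 7.57 ± 0.949 CPM (1.08 ± 0.14, adjusted p = 9.48e-05). SPL3 stood at 8.01 ± 1.67 CPM (2.37 ± 0.15, adjusted p = 9.12e-08) and DIN10 at 10.6 ± 1.95 CPM (2.50 ± 0.15, adjusted p = 8.66e-08). In CHS, at 277 ± 12.2 CPM, the outdoor value was again the lower one (-0.43 ± 0.10, adjusted p = 0.00902). PIF4 stood at 6.62 ± 0.473 CPM in LD+FR+TEMP, above the outdoor libraries (-0.99 ± 0.18, adjusted p = 0.00159). GI was also higher there, at 5.99 ± 1.70 CPM (-1.55 ± 0.31, adjusted p = 0.00271), as did COPT2 at 16.8 ± 4.03 CPM (-1.34 ± 0.18, adjusted p = 0.000149). Cell division genes, 10 of 20 of which were higher outdoors than in lab LD, gave 2 higher and 2 lower against LD+FR+TEMP, with a median of -0.00224. Flowering promoters gave 10 higher and 1 lower of 18 in both comparisons.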

How the data were processed

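The deposited count files hold whole-number counts of reads per transcript model (48359 models), made by the authors with bcl2fastq 2.17.1.14, Trimmomatic 0.36, Bowtie2 and edgeR on TAIR10, per the submitters' processing notes. The counting step, its strand setting and the handling of reads that match several copies are not given in the sources used here, so antisense partners and near-identical copies were not separated. No column was left unused (0). Counts were summed to 27655 loci. Names came from RefSeq TAIR10.1, in which 27445 loci matched.

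The comparison was fitted on 6 libraries in R 4.3.3 with edgeR 4.0.16: filterByExpr (minimum count 10, total 15), TMM, quasi-likelihood F test, Benjamini-Hochberg, threshold 0.05. Standard errors were derived from each log2 fold change and its F value. The time-of-day difference used 12 libraries and the LD+FR+TEMP comparison 6. The script was tested on simulated data. Replicates of a group differed by 3.38 to 5.93 times the sampling noise per gene, so none was a duplicate.

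A total of 38 gene lists (646 entries, 629 matched to a locus, 617 distinct loci, 528 tested) were used. Members, lists and naming rule were chosen with earlier results of these data known, and some matches of names to loci were corrected after the files were read. By that rule the text may name 9 photoperiod and shade genes (PIF4, FLC, CDF1, FKF1, GI, SOC1, CO, TSF and FT). For every list it adds, per direction, the 4 lowest adjusted p-values among members whose libraries do not overlap, plus 1 member without a call, taken in list order. It also takes the 10 genes per direction with the largest change at 5 CPM or more, and 6 per direction for the time-of-day difference. Alternatives were RLE and upper-quartile scaling, DESeq2 1.42.0, limma 3.58.1, 2 filters, an 18-library fit, thinning to equal depth, a replicate block and leaving out each library.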

Additional observations from a re-analysis of the deposited data

Results flagged for a closer look

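The difference between outdoor June 2013 and lab LD differed between ZT16 and ZT4 (edgeR interaction test, 12 libraries, adjusted p under 0.05) for the following genes of the text, as the evening effect minus the morning effect on the log2 scale with its standard error. Among the flowering and clock genes named, the evening effect was the more negative for FT (-2.89 ± 0.23), TSF (-4.11 ± 0.61), GI (-1.24 ± 0.36), CDF1 (-1.28 ± 0.25), LHY (-3.95 ± 0.36), RVE8 (-3.15 ± 0.19) and LUX (-2.23 ± 0.17). SOC1 (1.48 ± 0.15), PIF4 (1.45 ± 0.24), CRY2 (1.38 ± 0.15) and IAA29 (3.65 ± 0.30) had more positive ones. Over the whole list of flowering promoters, 6 of 18 had a more positive and 3 a more negative evening effect, with a median difference of 0.42.

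Light response and metabolic genes with a more negative evening effect were HYH (-3.11 ± 0.17), F3H (-2.09 ± 0.13), GBSS1 (-4.55 ± 0.30), BAM3 (-2.98 ± 0.14), the ascorbate synthesis gene VTC2 (-2.17 ± 0.11), the ribose-phosphate isomerase gene RPI2 (-1.98 ± 0.10), PDX1L4 (-2.96 ± 0.17) and AT3G56290 (-3.03 ± 0.13). For GBSS1 the evening values behind this difference are given above without a test, as its outdoor level at ZT16 was low. VTC2 stood at 1998 ± 109 CPM outdoors and 724 ± 37.6 CPM indoors at ZT4, against 328 ± 3.76 and 534 ± 30.5 CPM at ZT16. The sugar starvation genes DIN10 (3.07 ± 0.25) and TPS11 (3.75 ± 0.29) had a more positive evening effect. So did genes of no list: AT3G15450 (5.77 ± 0.40), the kelch-repeat genes AT1G23390 (3.55 ± 0.18) and AT3G59940 (2.11 ± 0.13), the zinc finger gene ATCTH (3.65 ± 0.22), the aspartyl protease gene AT5G19120 (3.56 ± 0.23) and AT1G01240 (2.81 ± 0.19). ATCTH was at 12.1 ± 1.97 CPM outdoors and 107 ± 24.1 CPM indoors in the morning and at 20.4 ± 1.12 and 14.3 ± 1.51 CPM in the evening. Groups of 3 libraries are too small for a test of single outlying libraries.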

How the results depend on the processing

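The 15 alternatives gave 2902 to 3590 genes higher and 2534 to 3789 lower, and 77.7% (DESeq2) to 99.8% (RLE size factors) of the called genes that could be tested kept their call and direction. Upper-quartile scaling made 46.1% of the called genes higher, within 10 points of the main share. Of 153 genes printed and tested, 134 passed and 128 of these kept call and direction in every one of the 15 alternatives that tested them, the exceptions being FLD, CCA1, ELF4, SPL5, TOE2 and IRT1. These counts include genes whose values are given above without a test, CCA1 and IRT1 among them. For such genes a kept call adds no support. Of the 19 that did not pass, 10 kept their direction and stayed short of the threshold in each; 4 changed sign and the others passed in at least 1. Genes with a fold change near 0 changed sign. GI was -0.11 in limma and -0.20 in thinned libraries, and ran from -0.24 to 0.37 without 1 library. FLC was 0.0084 in thinned libraries and ran from -0.094 to 0.11. TOC1 was 0.0050 in the fit of 18 libraries and ran from -0.061 to 0.060, and FKF1 ran from -0.17 to 0.031. The count against LD+FR+TEMP ran from 2377 to 4807 without 1 library. The cause was not tested. The replicate numbers did not pair the libraries: deviations of same-numbered libraries correlated at -0.0208, -0.0584 and -0.0682, and the replicate block gave 3542 genes higher and 3336 lower. List counts were lower with a mean of at least 5 CPM, which tests fewer genes: 6 flowering promoters and 5 sugar starvation genes rose, and 4 iron genes and 5 UV-B genes fell. The outdoor libraries, the shallower ones, limit genes of low count.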
